A study of Mus musculus with 12 samples.

Results

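The mitochondrial ribosomal protein genes are the nuclear genes whose symbols begin with Mrpl or Mrps and a number. They were followed in whole mouse hearts across age and across expression of a dominant-negative form of MCU. Members were the genes whose single gene symbol had this form on the array, and each was represented by its probe set with the highest mean over the 12 arrays. This gave 76 genes among the 18193 named on the array, from 156 probe sets, of which 34 genes had 1 probe set and 42 had several. By the current names of the ribosomal proteins, 49 belong to the large subunit and 26 to the small subunit. Mrps30 and Mrps18a carry a small-subunit symbol but belong to the large subunit. Mrps36 is not a ribosome subunit at all, and is now known as a component of the oxoglutarate dehydrogenase complex. Mrpl30 and Mrpl53 lay on probe sets shared with other genes and were not analysed here.

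MCU is the pore of the channel through which calcium enters mitochondria, and the DN-MCU construct interferes with it. Hearts of DN-MCU mice and of wild-type (WT) littermates, all of the outbred CD1 stock, were profiled on Affymetrix 3′ expression arrays with 500 ng of total RNA each. The 4 groups were WT adult and DN-MCU adult, both male and 42 days old, and WT neonate and DN-MCU neonate, both 1 day old and of unknown sex. Each group held 3 arrays, labelled as biological replicates. The promoter that drives the construct, and the number of founder lines, are not given in the sources used here. Age and sex composition cannot be told apart where adults are set against neonates.

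Mitochondrial ribosomes translate the few proteins encoded by mitochondrial DNA, which are core subunits of the respiratory chain and of ATP synthase. The ribosome has a large subunit, which joins amino acids, and a small subunit, which reads the message. Its proteins are made in the cytosol and imported. Many have counterparts in bacterial ribosomes, and others occur only in mitochondria, where they fill out a ribosome that has lost much of its RNA. Heart muscle is rich in mitochondria, and inherited defects of several of these proteins cause cardiomyopathy.

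Values are log2 signals, so a difference of 1 is a 2-fold change. All 76 members were measured: each representative probe set passed the filter, which asked that the third highest of 12 values exceed a log2 signal of 3.35, and the lowest mean among members was 7.84 (Mrps5). Differences were tested with limma, a linear model with moderated variances, on the 6 arrays of the 2 groups compared. A probe set passed at a Benjamini-Hochberg adjusted p under 0.05 over all 24176 probe sets tested, and "rose" and "fell" are used for those only. A probe set of Mcu read between 2.45 and 4.55 on the 6 WT arrays and between 8.44 and 10.42 on the 6 DN-MCU arrays, which matched every label. The other Mcu probe set did not separate the genotypes. It read 7.41 to 7.84 in WT adults and 7.39 to 8.14 in DN-MCU adults. In neonates it read 7.70 to 8.18 in WT and 7.91 to 8.03 in DN-MCU. The summed log2 signal of 8 cardiomyocyte markers lay between 118.4 and 119.3 on the neonatal arrays and between 121.0 and 123.0 on the adult arrays, so heart muscle markers were high throughout. In whole hearts, fewer cells of a type and less RNA per cell cannot be told apart.

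In adult hearts no mitochondrial ribosomal protein gene passed the test between DN-MCU and WT. The 76 differences had a median of -0.04 and were split between 32 above and 44 below 0, beside a median of 0.0023 over all 11804 genes measured. Of all probe sets 0.463% passed in this comparison, and 4 members had an unadjusted p under 0.05, beside 10.3% of all probe sets. The large subunit had a median difference of -0.04 and the small subunit one of -0.03. The 95% interval of a member's difference reached between 0.36 and 1.11 to either side, with a median of 0.62.

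**Figure D1:**
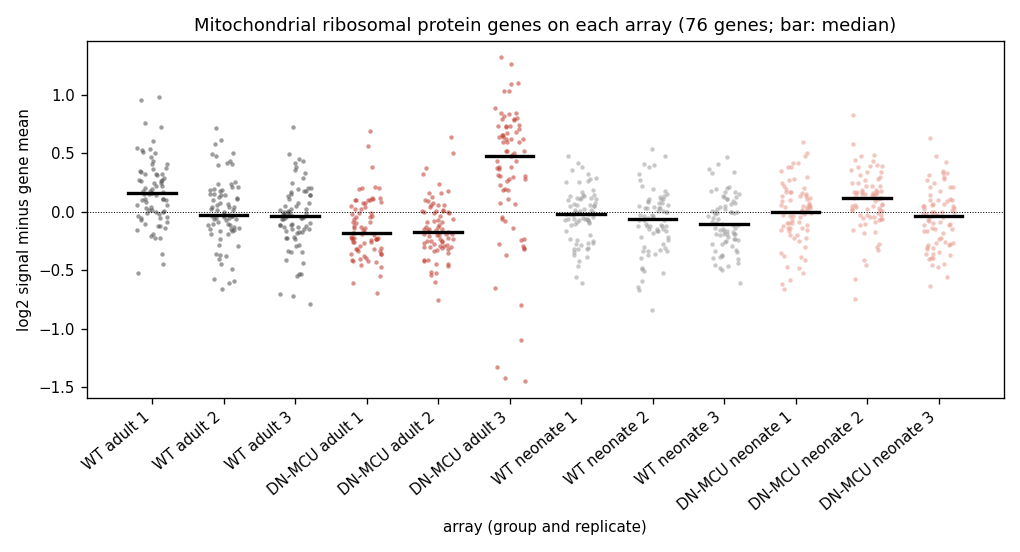
Log2 signal of each of the 76 genes minus its own mean over the 12 arrays (vertical axis), by array (horizontal axis), with a point for each gene and a black bar at the array's median. The array DN-MCU adult 3 sits above the others, and a few of its points lie far below 0.

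Mrpl18, a large-subunit protein near the central protuberance, had the largest difference downward. It read 11.24, 11.55 and 11.54 on the WT adult arrays and 10.70, 11.09 and 10.06 on the DN-MCU adult arrays. Every DN-MCU value lay below every WT value, and the lowest was on DN-MCU adult 3. The difference was -0.82 (SE 0.29, 95% interval -1.54 to -0.11, adjusted p = 0.414). Mrpl50 and Mrpl1 followed with differences of -0.61 (SE 0.25) and -0.53 (SE 0.39). Mrpl1, which forms the stalk at the exit for spent tRNA, read 8.81, 8.75 and 8.80 in WT and 8.58, 8.80 and 7.38 in DN-MCU adults. Its difference came mostly from DN-MCU adult 3 and was -0.09 without that array. A weaker probe set of Mrpl1 gave -0.84, also without passing.

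In the other direction Mrps18b, a small-subunit relative of bacterial protein S18, read 9.47, 9.13 and 8.86 in WT and 9.89, 9.52 and 10.46 in DN-MCU adults. The groups did not overlap, and the difference was 0.80 (SE 0.30, adjusted p = 0.439). Mrpl54 differed by 0.63 (SE 0.30) and Mrps6 by 0.57 (SE 0.26), with ranges that overlapped. The ranges of the groups were apart for 10 members, 3 higher (Mrpl20, Mrpl24 and Mrps18b) and 7 lower (Mrpl16, Mrpl18, Mrpl41, Mrpl49, Mrpl51, Mrps31 and Mrps5). Over all probe sets 17.2% had ranges apart, 8.7% higher and 8.46% lower.

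The array DN-MCU adult 3 stood apart for this gene family, though not for it alone. It read higher than both other DN-MCU adult arrays for 64 of the 76 members, beside 50.3% of all genes, and its members exceeded the mean of the other arrays by a median of 0.62, beside 0.12 over all genes. Mrpl14 was 1.42 higher there and Mrps11 1.27 higher. Another 8 members ran the other way and read lower than on both other arrays. Their differences from the mean of those arrays were -1.31 for Mrpl1, -1.13 for Mrpl47, -0.93 for Mrps33, -0.83 for Mrpl18, -0.51 for Mrpl50, -0.50 for Mrps18c, -0.32 for Mrpl33 and -0.23 for Mrpl49. The median of the members was 11.14 on this array, beside 10.58 and 10.54 on DN-MCU adult 1 and 2. That of 24 mitochondrial ribosome assembly genes was 8.95, beside 8.08 and 8.34. Complex I genes had 14.15, beside 13.80 and 13.85. Cytosolic ribosomal protein genes lay between, at 13.82 beside 13.90 and 13.73. So did genes for mitochondrial transcription and RNA processing, at 8.74 beside 8.64 and 8.92. WT adult 1 was also high, above both its partners for 57 of 76 members, beside 49.9% of all genes. Over all probe sets tested, its deviations from the group mean correlated with those of DN-MCU adult 3 at 0.579. With DN-MCU adult 1 and 2 the correlations were -0.381 and -0.547. The cause of this shared deviation was not tested.

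Markers of other cells moved on the same arrays. The summed log2 signal of the 4 measured adipocyte markers, of 8 listed, was 29.1 on DN-MCU adult 3, beside 35.4 and 38.8 on the others and 35.0 to 38.0 on the WT adult arrays. The sum of 2 erythroid markers, of 8 listed, was 17.4 there, beside 12.3 and 14.7, with 14.04 to 16.03 in WT. The 8 fibroblast markers summed to 87.3 there, beside 95.5 and 90.3, with 90.4 to 93.8 in WT, and their median was 9.85, beside 11.15 to 11.84 on the other 5 adult arrays. The 8 epicardial markers summed to 55.8 on WT adult 1 and to between 42.5 and 45.4 on the other 5 adult arrays. Their part in the signals of the ribosomal protein genes was not tested.

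Left with DN-MCU adult 1 and 2, the adult comparison leaned downward, still with no member passing. The median became -0.21, with 59 of 76 members below 0, while the median over all genes was 0.0094. Then 9 members had an unadjusted p under 0.05, beside 15.6% of all probe sets. In that fit 0.724% of all probe sets passed, and the smallest adjusted p among members was 0.118 (Mrps36). Without WT adult 1 the median was 0.04 instead, beside 0.0284 over all genes, with 42 members above 0 and none passing. There 4 members had an unadjusted p under 0.05, beside 9.53% of all probe sets. The sign of the family's median in adults thus changed with which array was left out.

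**Figure D2:**
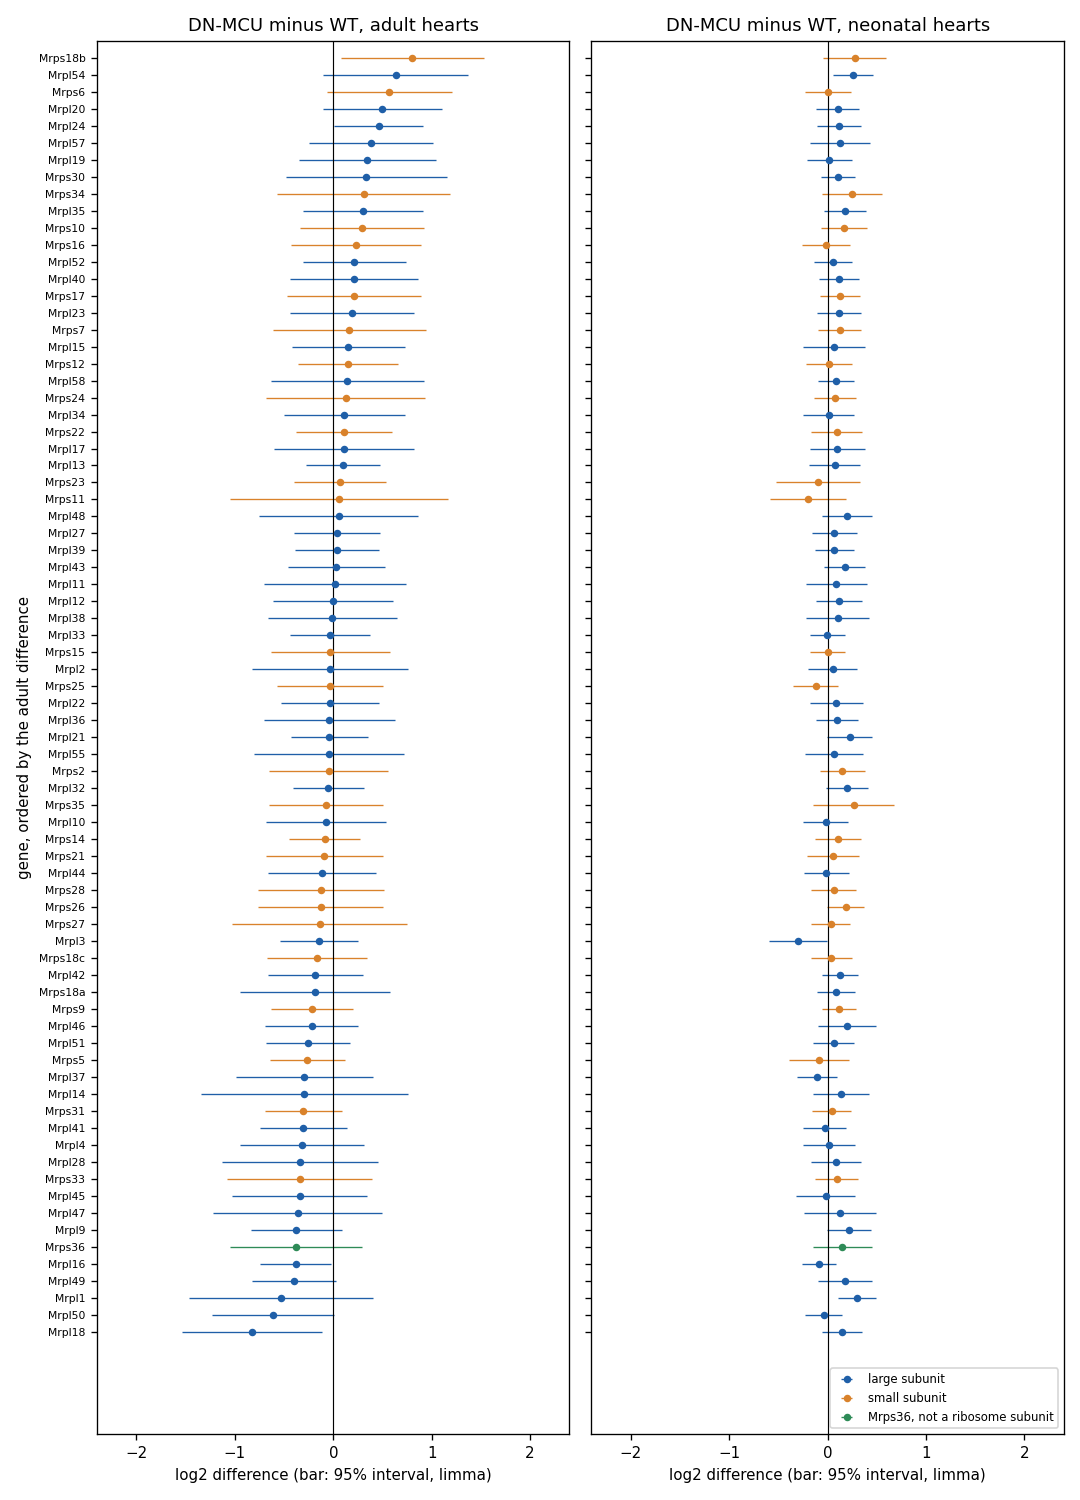
Log2 difference of DN-MCU minus WT (horizontal axis) for each of the 76 genes (vertical axis, ordered by the adult difference), in adult and in neonatal hearts, with 95% intervals from limma and colours for the subunit. The neonatal intervals are narrower, and no gene passed in either panel.

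In neonatal hearts the differences were smaller and mostly above 0, and again no member passed. DN-MCU exceeded WT in the mean of 62 of 76 members, or 81.6%, beside 59% of all genes. The median difference was 0.09, beside 0.03 over all genes, with 0.09 for the large and 0.07 for the small subunit. In neonates 1 probe set of all those tested passed, or 0.00414%, and 3 members had an unadjusted p under 0.05, beside 7.27% of all probe sets. The median half-width of the intervals was 0.23. Ranges were apart for 16 members, 15 of them higher in DN-MCU, beside 7.51% of all probe sets higher and 5.13% lower. DN-MCU neonate 2 read higher than both its partners for 54 of 76 members, beside 39.1% of all genes, and without it the median was 0.03 with 50 members above 0.

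Markers of other cells moved in the same neonatal comparison, none passing the test. The 8 epicardial markers summed to between 59.3 and 61.6 in DN-MCU and to between 63.9 and 68.9 in WT neonates, with a median difference of -0.76 and ranges apart downward for 5 of 8. All 7 macrophage markers had differences below 0, with a median of -0.12. The 2 measured erythroid markers had a median of -1.03 and summed to between 15.25 and 16.60 in DN-MCU and to between 16.7 and 19.2 in WT. Their part in the neonatal differences of the ribosomal protein genes was not tested.

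Mrpl1 had the largest neonatal difference upward. It read 8.95, 8.83 and 9.01 in WT and 9.22, 9.20 and 9.28 in DN-MCU neonates, so that every DN-MCU array lay higher. The difference was 0.30 (SE 0.08, adjusted p = 0.544). Mrps18b differed by 0.27 (SE 0.13) and Mrps35 by 0.26 (SE 0.17). Mrpl3, a core protein beside the catalytic centre whose mutation causes cardiomyopathy in people, had the largest difference downward and was the 1 member with ranges apart in that direction. Its values were 11.37, 11.43 and 11.35 in WT and 11.33, 11.00 and 10.92 in DN-MCU neonates, and its difference was -0.30 (SE 0.12, adjusted p = 0.681). Mrps11 and Mrps25 followed with -0.20 and -0.12, and their intervals held 0.

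The difference between the adult and the neonatal genotype effects was tested over all 12 arrays, with a variance for each group. No member passed, beside 0.554% of all probe sets, and 4 members (Mrpl1, Mrpl9, Mrpl18 and Mrpl49) had an unadjusted p under 0.05, beside 8.05%. Mrpl18 was the only member whose ranges were apart downward in adults and upward in neonates. Over all probe sets 8.46% were apart downward in adults and 7.51% upward in neonates, and the share with both was not counted. In neonates Mrpl18 read 11.72, 11.57 and 11.76 in WT and 11.89, 11.78 and 11.82 in DN-MCU. Its adult effect minus its neonatal effect was -0.97 (SE 0.27, adjusted p = 0.206). Without DN-MCU adult 3 the median difference of effects over members moved from -0.11 to -0.28, beside -0.0136 over all genes in that fit. Then 64 of 76 members lay below 0, with none passing, while 512 probe sets passed in place of 134.

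Members did pass between the ages. In WT hearts 18 members rose from neonate to adult and 7 fell, together 32.9% of the 76, beside 50.8% of all probe sets (22.6% higher and 28.2% lower). The median difference of the members was 0.08, beside -0.16 over all genes. In the large subunit 11 of 49 rose and 5 fell, and in the small subunit 6 of 26 rose and 2 fell, with Mrps36 as the remaining gene. Of the 45 proteins classed as having a bacterial counterpart 9 rose and 4 fell, and of the 30 classed as mitochondria-specific 8 rose and 3 fell. Mrps18b was classed among the 30, although it is a relative of a bacterial protein. Ranges were apart for 45 members, 30 higher and 15 lower, beside 65.5% of all probe sets (29.2% higher and 36.3% lower). An unadjusted p under 0.05 was found for 29 members, beside 57.9% of all probe sets.

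The split between directions depends on how the arrays are scaled. Subtracting each array's median moves the median of all genes by -0.13, and then 16 members rose and 14 fell, or 53.3% of calls upward in place of 72%. The members' median then becomes -0.05. Its distance above the median of all genes stays at 0.24 by construction, since the subtraction shifts members and all genes alike. Under quantile normalization that distance was 0.22. Shares of all probe sets passing under these scalings are not given here, so the changed split is not read as particular to the members.

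The largest rise was that of Mrpl44, a mitochondria-specific protein of the large subunit with a ribonuclease fold, whose mutation causes infantile cardiomyopathy. It read 11.44, 11.29 and 11.20 in WT adults and 10.10, 10.31 and 10.10 in WT neonates. Every adult value was above every neonatal value by more than the spread of either group. The difference was 1.14 (SE 0.12, 2.20-fold, adjusted p = 0.00057). Its 3 other probe sets rose too, by 1.08, 1.47 and 2.96.

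Mrpl4, which lines the tunnel through which new proteins leave, read 11.92, 11.47 and 11.40 in WT adults and 10.65, 10.29 and 10.51 in neonates, a rise of 1.11 (SE 0.18, adjusted p = 0.00295). Mrpl37, a mitochondria-specific protein of the large subunit, read 9.86, 9.49 and 9.24 in adults and 8.42, 8.38 and 8.51 in neonates and rose by 1.10 (SE 0.17, adjusted p = 0.00273). In both genes WT adult 1 was the highest array and no adult value reached the neonatal range. Mrps23, a mitochondria-specific protein of the small subunit, read 11.89, 11.54 and 11.52 in adults and 10.87, 10.29 and 10.73 in neonates and rose by 1.02 (SE 0.19, 2.03-fold, adjusted p = 0.00553), and its 2 other probe sets rose by 1.19 and 0.74.

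The other risers of the large subunit gained between 0.47 (Mrpl42) and 0.72 (Mrpl28): Mrpl14, Mrpl21, Mrpl38, Mrpl49, Mrpl55 and Mrps18a lay between these. For Mrpl38 and Mrpl49 another probe set gave -0.0064 and -0.14, neither passing. In the small subunit Mrps34 rose by 0.74, Mrps24, which sits at the entry of the message, by 0.66, Mrps7 by 0.62, Mrps6 by 0.59 and Mrps12, part of the decoding centre, by 0.36. A second probe set passed in the same direction for Mrps24 and Mrps6.

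**Figure D3:**
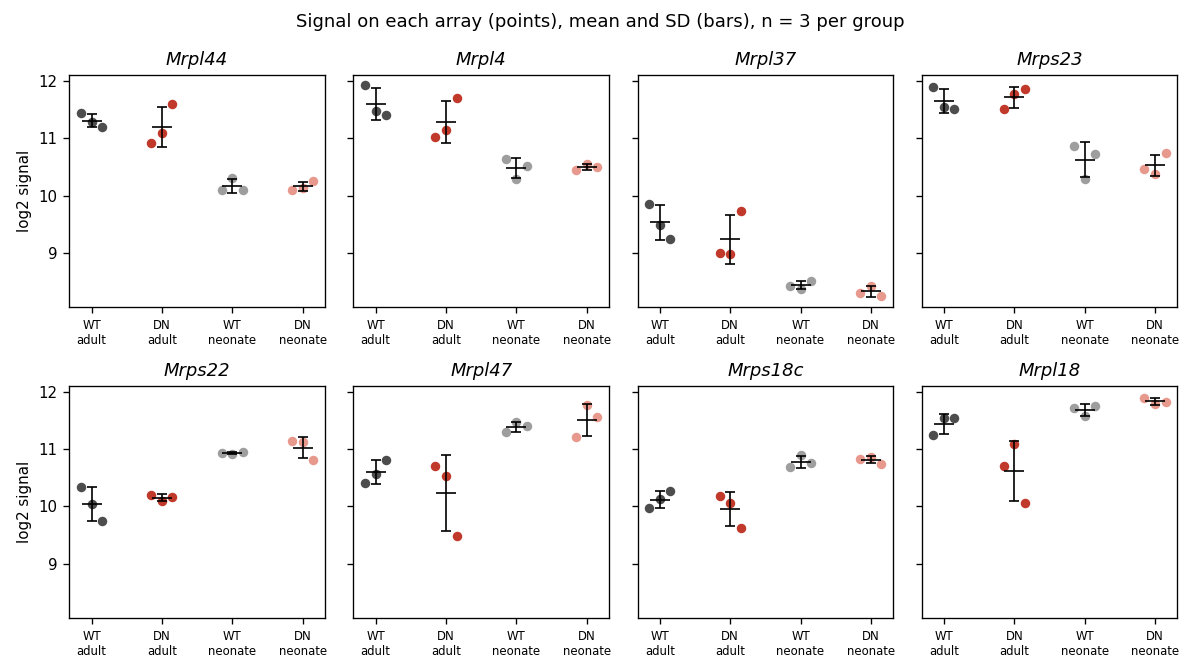
Log2 signal on each array (points) with the group mean and SD (bars, n = 3) for 8 members, by group. Mrpl44, Mrpl4, Mrpl37 and Mrps23 are higher in both adult groups, Mrps22, Mrpl47 and Mrps18c are lower, and Mrpl18 is lowest in DN-MCU adults; levels of different genes are not comparable, since each probe set has its own sensitivity.

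Mrps22, a mitochondria-specific protein of the small subunit whose mutation has been linked to cardiomyopathy, had the largest fall. Its WT adult values were 10.33, 10.05 and 9.75 and its WT neonatal values 10.92, 10.92 and 10.95. The neonatal arrays lay close together and above every adult array. The difference was -0.89 (SE 0.17, 1.85-fold lower, adjusted p = 0.00517). Mrpl47, at the exit of the protein tunnel, read 10.41, 10.57 and 10.82 in adults and 11.29, 11.47 and 11.41 in neonates and fell by 0.79 (SE 0.14, adjusted p = 0.00417). Mrps18c, the closest mitochondrial relative of bacterial S18, read 9.97, 10.12 and 10.27 in adults and 10.68, 10.89 and 10.75 in neonates and fell by 0.66 (SE 0.13, adjusted p = 0.00606).

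Mrpl19, Mrpl32, Mrpl40 and Mrpl54 also fell, by 0.65, 0.39, 0.65 and 0.58. Mrpl32 is known for being cut by the mitochondrial m-AAA protease before it joins the ribosome. Mrps11 came next with a difference of -0.65 that did not pass (adjusted p = 0.0953). It read 9.16 on WT adult 1 and 8.16 and 8.27 on the other WT adult arrays, and without WT adult 1 its difference was -0.96 and passed.

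Of the 25 calls in WT, 15 were kept whichever of the 6 arrays was left out: 12 that rose and the falls of Mrps22, Mrpl47 and Mrps18c. Without WT neonate 3, 12 members rose and 3 fell, beside 18.1% and 22.9% of all probe sets. Without WT adult 1, the array that stood high, 18 rose and 12 fell, beside 26.3% and 31.5%. Without WT adult 3, 19 rose and 3 fell, beside 20.6% and 24.8%, and without WT neonate 1, 15 rose and 3 fell, beside 18.6% and 23.3%. Mrps12 lost its call in every such fit, and Mrpl19, Mrpl32, Mrpl40 and Mrpl54 in 4 or 5 of 6. Mrps6 lost it without any of the WT neonatal arrays, Mrpl14 without WT neonate 1 or 3, Mrps7 without WT neonate 2 or 3, and Mrpl49 and Mrpl55 without WT neonate 3. With 1 spread fitted over all 12 arrays Mrpl14, Mrpl54, Mrps7, Mrps12, Mrps18a, Mrps24 and Mrps34 did not pass, and with array medians subtracted Mrps6 and Mrps12 did not. Among 32 genes with several measured probe sets, 19 had the same sign in all of them. For no called gene did another probe set pass in the opposite direction. Some members counted as not passing had other probe sets that passed. Examples are Mrpl52 (-0.88 and -1.01), Mrpl9 (0.97 and 1.68), Mrpl35 (1.16) and Mrps5 (-0.82 and -1.02). Of the 132 probe sets of members tested, 38 rose and 14 fell, beside 22.6% and 28.2% of all probe sets.

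The promoters of 4 members that passed with age in both genotypes, chosen after their values were seen, are shown so that the stretches of 2 that rose can be read beside those of 2 that fell. Each stretch is the 150 bases just before the start of the gene in RefSeq (build GRCm38.p6), 5′ to 3′ in the direction of the gene. Capitals mark matches to the ETS core CCGGAAG, to the NRF1 motif (GCGCA, any base, GCGC) or to the YY1 motif AAGATGGCG, each searched on both strands. Factors of these families are known to act at many nuclear genes for mitochondrial proteins. Mrpl44 and Mrps23 rose with age, and Mrps22 and Mrpl47 fell.
Mrpl44, chr1:79775868-79776017, plus strand: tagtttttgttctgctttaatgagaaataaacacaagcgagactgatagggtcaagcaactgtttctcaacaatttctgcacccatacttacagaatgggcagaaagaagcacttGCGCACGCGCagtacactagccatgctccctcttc
Mrps23, chr11:88204238-88204387, plus strand: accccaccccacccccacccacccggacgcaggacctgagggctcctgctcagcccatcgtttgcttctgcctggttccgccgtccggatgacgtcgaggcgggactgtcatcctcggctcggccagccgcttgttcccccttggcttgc
Mrps22, chr9:98601680-98601829, minus strand: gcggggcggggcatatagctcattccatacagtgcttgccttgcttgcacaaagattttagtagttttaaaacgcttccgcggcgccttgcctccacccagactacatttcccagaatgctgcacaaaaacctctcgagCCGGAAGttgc
Mrpl47, chr3:32736756-32736905, minus strand: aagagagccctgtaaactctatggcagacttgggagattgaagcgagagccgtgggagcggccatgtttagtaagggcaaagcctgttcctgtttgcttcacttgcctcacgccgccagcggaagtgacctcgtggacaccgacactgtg

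The printed stretch of Mrpl44 holds an NRF1 match that starts 35 bases before the gene, and that of Mrps22 an ETS core that starts 11 bases before it. The ETS core of Mrps23 lies in its 300-base window (250 bases before the start to 50 after) but outside the printed stretch. No motif searched was found in the window of Mrpl47. Windows were matched for 67 of 76 members. The ETS core occurred in 25 of these (37.3%), beside 19.4% of the measured genes and 9.93% of all genes in the table. NRF1 was found in 12 (17.9%, beside 11.5% and 5.19%), and YY1 in 8 (11.9%, beside 3.55% and 1.64%). The GC box GGGCGG was found in 50.7% of members and 68.6% of measured genes.

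By direction of the change with age in WT, the ETS core was in 4 of 15 matched risers, 2 of 5 that fell and 19 of 47 that did not pass, and YY1 in 4, 0 and 4 of the same. NRF1 was in 2 of 15 risers and 1 of 5 that fell. The letters TGATGNAA, part of the composite element read by CHOP and ATF4, were found in 0 of 67 windows, beside 2.76% of measured genes. The ERR motif TCAAGGTCA was also in 0 of 67, beside 0.325%. The E-box CACGTG was in 7.46% of members and 11.7% of measured genes, the TATA box TATAAA in 7.46% and 9.14%, the CCAAT box in 38.8% and 42.8%, and the cyclic AMP element TGACGTCA in 2.99% and 3.42%. The full composite TTGCATCA and the ZNF143 element were in 0 of 67, beside 0.735% and 0.756%. In all 12 motifs were searched, and a match in letters is not evidence of binding.

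**Figure D4:**
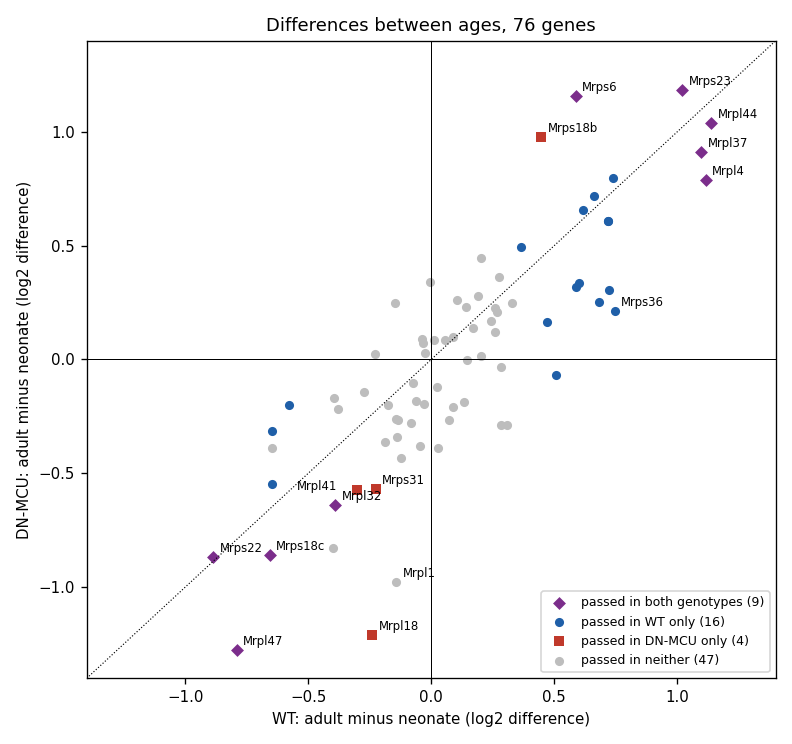
Log2 difference of adult minus neonate in WT (horizontal axis) and in DN-MCU hearts (vertical axis) for the 76 genes, with the dotted line at equal differences. Of the 76, 9 passed in both genotypes, 16 in WT alone and 4 in DN-MCU alone, and the 9 lie in the same direction in both.

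In DN-MCU hearts 6 members rose with age and 7 fell, together 17.1%, beside 33.2% of all probe sets (14.6% higher and 18.6% lower). Ranges were apart for 14 members upward and 15 downward, beside 25.6% and 31.8% of all probe sets (57.4% in all), and 17 members had an unadjusted p under 0.05, beside 45.6%. The median was 0.02, beside -0.17 over all genes. Mrpl4, Mrpl37, Mrpl44, Mrps6, Mrps18b and Mrps23 rose, and Mrpl18, Mrpl32, Mrpl41, Mrpl47, Mrps18c, Mrps22 and Mrps31 fell. With array medians subtracted 3 rose and 11 fell, or 21.4% upward in place of 46.2%. That scaling moved the median of all genes by -0.15. The members' median was then -0.13, beside -0.32 over all genes. Under quantile normalization 6 rose and 5 fell (54.5% upward), with a median of 0.05 beside -0.08 over all genes. Shares of all probe sets passing under these scalings are not given here, so the splits are not read as particular to the members. Of the 13 called with the signals as deposited, 9 were among the 25 called in WT, each in the WT direction. That is 36% of the WT calls and 69.2% of the DN-MCU calls. The WT and DN-MCU comparisons share no arrays. Over all probe sets 50.8% passed in WT and 33.2% in DN-MCU, and the overlap of those calls was not counted here. The shared calls are therefore not read as particular to the members.

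Mrps23 read 11.51, 11.77 and 11.86 in DN-MCU adults and 10.47, 10.38 and 10.74 in DN-MCU neonates, again with no overlap, and rose by 1.18 (SE 0.18, adjusted p = 0.00468). Mrps6 read 11.58, 11.52 and 12.11 in adults and 10.54, 10.74 and 10.46 in neonates and rose by 1.16 (SE 0.22, adjusted p = 0.00923). Mrpl44 rose by 1.04 (SE 0.22) and Mrps22 fell by 0.87 (SE 0.17), close to their WT differences of 1.14 and -0.89. Mrpl18 fell by 1.21 (SE 0.28, adjusted p = 0.0189) where its WT difference was -0.24 (SE 0.13, adjusted p = 0.175). Mrps18b rose by 0.98 (SE 0.28), beside 0.45 in WT (adjusted p = 0.0745). No difference between the genotypes in these age effects passed, as the test of the difference of effects is the same contrast.

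The DN-MCU counts changed with single arrays. Without DN-MCU adult 3, 8 members rose and 21 fell, beside 53.1% of all probe sets (23.6% higher and 29.5% lower). The median of the members was then -0.19, close to the -0.17 over all genes in that fit. Without DN-MCU adult 2, 5 rose and 3 fell, beside 27.6% of all probe sets (12.6% higher and 15% lower). Without DN-MCU neonate 1, 2 or 3, the number called was 2, 2 and 4, while the share of all probe sets passing also went down, to 18.8%, 19.7% and 20.8%. The calls of Mrps23 and Mrps6 were kept in all 6 of these fits, and the other 11 were lost in at least 2.

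Among the members linked to inherited disease or to a second role, Mrpl44 and Mrps22 changed with age as above. Mrpl3 differed by 0.11 between WT ages, reading 11.53, 11.47 and 11.48 in adults and 11.37, 11.43 and 11.35 in neonates (adjusted p = 0.398). Mrps14, whose mutation has been linked to cardiomyopathy, read 11.34, 11.49 and 11.42 in WT adults and 11.28, 11.29 and 11.40 in DN-MCU adults, a difference of -0.09 inside its interval of -0.45 to 0.27. Mrpl12, a stalk protein that has also been found to bind mitochondrial RNA polymerase, read 12.20, 12.04 and 11.76 in WT adults and 11.68, 11.91 and 12.41 in DN-MCU adults. Its adult interval ran from -0.61 to 0.60 around a difference of -0.0040. None of these passed in any genotype comparison.

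The members whose symbols mislead also differed among themselves. Mrps18a, a large-subunit relative of S18, read 11.50, 11.21 and 11.16 in WT adults and 10.73, 10.64 and 10.73 in WT neonates and rose by 0.59 (SE 0.13, adjusted p = 0.00967). Of the 3 relatives of S18, Mrps18a rose and Mrps18c fell with age in WT, while Mrps18b, at 0.45, did not pass. Mrps30 had a difference of -0.40 between WT ages that did not pass (adjusted p = 0.171), with WT adult 1 apart at 10.57 beside 9.82 and 9.86. Without that array its difference was -0.64 and passed. Mrps36 read 11.63, 11.57 and 11.57 in WT adults and 10.88, 10.82 and 10.83 in WT neonates and rose by 0.74 (SE 0.10, adjusted p = 0.00119). In DN-MCU adults it read 10.84, 11.00 and 11.78, so that 2 arrays lay within the range of the DN-MCU neonates and DN-MCU adult 3 above every WT array. The adult genotype difference was -0.38 (SE 0.28), and -0.67 without DN-MCU adult 3 (adjusted p = 0.118).

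**Figure D5:**
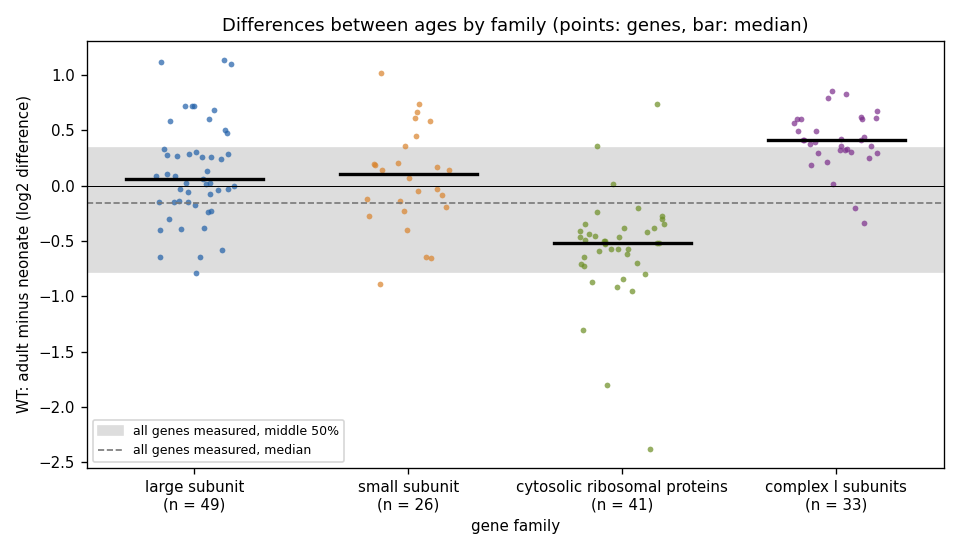
Log2 difference of WT adult minus WT neonate (vertical axis) for genes of the large and small mitochondrial ribosomal subunits, the cytosolic ribosome and complex I, with a point for each gene, a bar at the median, a dashed line at the median of all genes and a grey band over their middle 50%. The mitochondrial ribosomal genes lie on both sides of 0, the cytosolic ones mostly below and the complex I genes mostly above.

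Set beside 2 related families, chosen for this after values were seen, the mitochondrial ribosomal genes took a middle place with age. Of 41 cytosolic ribosomal protein genes 32 fell and 1 rose from neonate to adult in WT, with a median of -0.51. Of 33 complex I subunit genes, many of which partner with products of mitochondrial translation, 22 rose and 1 fell, with a median of 0.41. Over all probe sets 22.6% rose and 28.2% fell in this comparison. In adult DN-MCU hearts the medians were 0.26 for the cytosolic ribosomal genes and -0.20 for complex I, with no gene of either family passing. Differences between families were not tested.

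The machinery that works with the ribosome was also measured. No gene of it passed in either genotype comparison. The counts with age in WT that follow stand beside 22.6% of all probe sets that rose and 28.2% that fell, 50.8% together. Of 14 translation factors 3 rose with age in WT (Gfm1, Gfm2 and Tufm, elongation and recycling factors) and 1 fell (Guf1, by 2.24). In adult DN-MCU against WT 11 of the 14 lay below 0, beside 5871 of all 11804 genes. Of 24 assembly factors 6 rose and 2 fell with age in WT. Mtg2, a GTPase of large-subunit assembly, rose by 1.72 and Mettl15, a methyltransferase of the small-subunit RNA, fell by 1.02. Of 18 genes for mitochondrial transcription and RNA processing 5 rose and 3 fell, with the polymerase Polrmt among the risers (0.65). Of 4 subunits without an Mrp symbol Ptcd3, of the small subunit, rose by 0.48. In neonates 23 of the 24 assembly factors had a DN-MCU mean above the WT mean, beside 59% of all genes. Their median difference was 0.16, beside 0.03 over all genes.

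Cell type markers also differed between the ages, and their part in these changes was not tested. The 7 macrophage markers summed to between 63.1 and 65.4 in WT adults and to between 49.3 and 50.6 in WT neonates. The 8 epicardial markers summed to between 42.5 and 55.8 and to between 63.9 and 68.9, and the 8 fibroblast markers to between 90.4 and 93.8 and to between 99.2 and 101.2. In the DN-MCU groups macrophage markers summed to between 63.3 and 65.6 in adults and to between 46.8 and 49.6 in neonates.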

How the data were processed

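Whole hearts of 4 groups with 3 arrays each were analysed. The authors deposited a single table of log2 signals covering 45101 probe sets. That these are log2 values was read from their range, and no source used here states whether or how the arrays were scaled. Per the submitters' processing notes the software Partek was involved. The signals were taken as they stand. Control probe sets (64) were dropped, and 24176 of the others passed the filter (the third highest of 12 values above the median of all values). Gene symbols came from the platform annotation: 34945 probe sets had 1 symbol and 932 had several, and 34741 gene IDs were matched to RefSeq with 0 symbols changed.

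Each comparison was fitted with limma 3.58.1 in R 4.3.3 on the arrays of its 2 groups, and the difference of genotype effects on all 12 arrays with a variance for each group. Adjustment was by Benjamini-Hochberg over all probe sets. The p values measure the spread between arrays labelled as biological replicates, and their number limits the precision. The script was tested on simulated data. The members, the companion lists and the alternatives were chosen with earlier results of these data known. Values by array are given for the 3 largest genotype differences and the 4 largest WT age differences in each direction, for members that passed, and for 8 genes picked for a disease link, a second role or a misleading symbol; not every such value is printed, and other members named were chosen after their values were seen.

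To see whether replicate numbers pair arrays, deviations from the group means were correlated. Same-numbered neonates correlated at 0.133, 0.223 and 0.283, all above 0.1, and were treated as possibly paired, although no label explains the numbers. Adults (-0.381, 0.410 and -0.428) and the ages within a genotype were not. The neonatal differences, SEs, intervals and p values given above come from a fit without pairing. The replicate block was run only as an alternative. Alternatives were 1 spread over all groups, quantile or median scaling, other filters, leaving out probe sets that match several transcripts, a prior variance that follows the mean, the replicate block and leaving out each array. Promoter windows are RefSeq's for GRCm38.p6. Protein sequences were not used here.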

Additional observations from a re-analysis of the deposited data

How the results depend on the processing

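No member passed in the adult comparison, in the neonatal one or in the difference of effects under any alternative run, replicate arrays left out included. In WT hearts the members passing with age kept within 1.5 times 25 under each alternative run other than leaving out an array. With an array left out they ranged from 15 to 30, beside 41% to 57.8% of all probe sets. In DN-MCU hearts 22 members passed with 1 spread over 12 arrays in place of 13. With an array left out 2 to 29 passed, beside 18.8% to 53.1% of all probe sets. For the fit with 1 spread and for the replicate block, the share of all probe sets passing with age in DN-MCU is not given here. With the replicate number as a block, 5 members passed with age in DN-MCU, and the probe sets passing were 16 in adults, 0 in neonates and 23 for the difference of effects; the pairing changed no call of a member in neonates.

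Over all probe sets, the 112 of the adult comparison became 1152 with 1 spread, 297 with a variance for each group over 12 arrays, 74 with no filter and 55 without cross-matching probe sets, and 17 to 175 with an array left out. The 1 of the neonatal comparison became 4, 33 and 0 under the first 3 of these, 2 with centred arrays, a stricter filter or a prior variance following the mean, and 0 to 3 with an array left out. The stricter filter (13003 probe sets) left 7917 for WT age, 4856 for DN-MCU age and 64 for the difference of effects. Leaving out an array gave 9908 to 13966, 4543 to 12841 and 24 to 512 for these. The cause of these shifts was not tested.

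Median differences with age in WT became -0.075 (large subunit) and -0.024 (small) with centred arrays. These lay 0.216 and 0.267 above the median of all genes, distances that centring cannot change. Without cross-matching probe sets the small subunit had -0.084 in WT, -0.278 in DN-MCU and -0.175 for the difference of effects, over 59 genes in all. With an array left out, the large-subunit median ranged from -0.211 to 0.060 in adults, 0.030 to 0.142 in neonates, 0.021 to 0.077 for WT age, -0.175 to 0.195 for DN-MCU age and -0.298 to -0.001 for the difference of effects; the small-subunit median ranged from -0.186 to 0.10, 0.041 to 0.099, 0.030 to 0.154, -0.273 to 0.077 and -0.209 to 0.101.

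Small differences of single members changed sign: Mrpl12 in adults was 0.003 and Mrpl3 with WT age -0.026 with centred arrays, and Mrpl38 with WT age was -0.006 by the probe set left when cross-matching ones were dropped. With an array left out, the adult difference ranged from -0.211 to 0.156 for Mrpl12, from -0.037 to 0.256 for Mrps22, from -0.311 to 0.031 for Mrpl44 and from -0.514 to 0.007 for Mrps18a. Dim probe sets near the filter level are measured least well.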
